A study of Mus musculus with 6 samples.

Results

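The proteasome subunit genes are the 43 genes whose symbol is Psma, Psmb, Psmc, Psmd or Psme followed by a number, out of 21937 genes measured. They were chosen by symbol alone and comprised 7 genes of the alpha ring, 7 of the constitutive beta ring, 3 of the immunoproteasome, 2 tissue-restricted core subunits, 6 ATPases of the 19S regulatory particle, 14 Psmd genes, called 19S non-ATPases here although Psmd5, Psmd9 and Psmd10 encode chaperones of its assembly and not subunits, and 4 activators. The data are chromatin immunoprecipitation sequencing (ChIP-seq) libraries of mK4 and mK3, mouse lines immortalized from E11.5 metanephric (embryonic kidney) cells of strain CD1, with no treatment given. For H3K4, for H3K27 and for input genomic DNA without antibody there was 1 library per line. With 1 library per group no difference here has a replicate check, no p-value is given, and every interval is a 95% counting interval that covers counting error only, since reads without molecular identifiers are not independent molecules. Reads were counted over exons, so that promoter sequence upstream of the first exon is not in the values.

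The proteasome degrades proteins tagged with ubiquitin. Its barrel-shaped core stacks alpha rings, which gate entry, on beta rings, whose subunits Psmb5, Psmb6 and Psmb7 cut the chain, and the 19S particle binds, unfolds and feeds in the substrate. Interferon gamma induces Psmb8, Psmb9 and Psmb10, which take the places of Psmb5, Psmb6 and Psmb7 and form the immunoproteasome, which makes peptides for antigen presentation. Psma8 is the alpha subunit of the testis and Psmb11 the beta subunit of the thymic cortex. Methylation of H3K4 is generally a mark of active promoters, and trimethylation of H3K27 a mark of genes silenced by Polycomb proteins. The labels do not give the degree of methylation. The catalogue number on the H3K4 libraries, ab8898, is one under which the vendor sells an antibody to trimethylated lysine 9 of histone H3, a mark of silent chromatin and of zinc finger gene clusters, and the residue that these libraries report was not tested. In these libraries the 332 zinc finger genes named Zfp had a summed H3K4 share of reads 1.0-fold their input share in mK4 (0.98 to 1.03) and 0.98-fold in mK3 (0.95 to 1.01), while the 81 cytosolic ribosomal protein genes had 1.42-fold (1.29 to 1.57) and 1.52-fold (1.35 to 1.71).

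RefSeq promoter windows on GRCm38.p6, of 250 bases before and 50 after the annotated start, were found for 36 of the 43 genes. Those of the immunoproteasome genes Psmb8 (chr17:34197945-34198244, plus strand) and Psmb9 (chr17:34187281-34187580, minus strand) are shown beside those of the constitutive genes they replace, Psmb5 (chr14:54617946-54618245, minus strand) and Psmb6 (chr11:70525107-70525406, plus strand). Psmd14 (chr2:61711444-61711743, plus strand), the deubiquitinase of the 19S particle, is added because H3K4 marked it in both lines. Each runs 5′ to 3′ along the gene, with every CpG dinucleotide in capitals.
Psmb8: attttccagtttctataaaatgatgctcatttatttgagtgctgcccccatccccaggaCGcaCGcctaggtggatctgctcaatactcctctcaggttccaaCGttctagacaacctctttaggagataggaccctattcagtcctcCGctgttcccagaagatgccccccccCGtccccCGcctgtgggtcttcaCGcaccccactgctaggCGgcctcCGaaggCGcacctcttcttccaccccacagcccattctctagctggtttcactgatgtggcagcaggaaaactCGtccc
Psmb5: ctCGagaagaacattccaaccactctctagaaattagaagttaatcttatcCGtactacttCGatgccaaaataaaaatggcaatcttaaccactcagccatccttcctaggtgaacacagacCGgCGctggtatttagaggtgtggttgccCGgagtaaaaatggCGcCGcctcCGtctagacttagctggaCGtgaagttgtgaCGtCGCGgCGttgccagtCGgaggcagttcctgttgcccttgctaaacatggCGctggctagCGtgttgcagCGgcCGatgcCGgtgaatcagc
Psmb9: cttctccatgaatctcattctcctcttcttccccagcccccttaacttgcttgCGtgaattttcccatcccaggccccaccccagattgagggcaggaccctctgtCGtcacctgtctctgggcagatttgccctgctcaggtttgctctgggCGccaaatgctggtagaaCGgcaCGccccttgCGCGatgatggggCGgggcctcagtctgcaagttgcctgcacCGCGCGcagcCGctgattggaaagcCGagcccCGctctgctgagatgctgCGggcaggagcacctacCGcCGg
Psmb6: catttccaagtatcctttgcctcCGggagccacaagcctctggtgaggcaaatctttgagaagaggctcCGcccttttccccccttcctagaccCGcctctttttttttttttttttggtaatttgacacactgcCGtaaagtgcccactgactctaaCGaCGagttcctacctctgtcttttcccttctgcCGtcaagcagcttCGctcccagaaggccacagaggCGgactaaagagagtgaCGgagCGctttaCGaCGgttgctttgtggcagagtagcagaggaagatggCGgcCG
Psmd14: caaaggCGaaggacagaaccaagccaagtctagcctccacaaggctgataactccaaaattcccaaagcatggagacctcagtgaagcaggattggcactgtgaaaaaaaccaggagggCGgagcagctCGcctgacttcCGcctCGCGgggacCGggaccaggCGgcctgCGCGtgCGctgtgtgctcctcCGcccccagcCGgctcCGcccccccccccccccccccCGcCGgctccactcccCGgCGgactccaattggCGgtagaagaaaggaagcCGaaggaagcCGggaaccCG
CpG dinucleotides, whose density is a feature of housekeeping promoters, numbered 11 in the Psmb8 window and 17 in that of Psmb9, against 20 in Psmb5, 15 in Psmb6 and 22 in Psmd14. The ratio of observed to expected CpG was 0.52 and 0.60 in Psmb8 and Psmb9, and 1.0 and 0.73 in Psmb5 and Psmb6. Over the 39 member windows (some genes have several) it had a median of 0.73 and ranged between 0.17 for Psmb11 and 1.12 for Psmc4, while the median over all 32851 windows was 0.38. Psmb10, the third immunoproteasome gene, had 0.19. By class the median was 0.95 for the 19S ATPases, 0.82 for the alpha ring, 0.76 for the constitutive beta ring, 0.73 for the 19S non-ATPases, 0.58 for the activators and 0.52 for the immunoproteasome. GGGCGG, the GC box, was found on either strand in 10 of 12 windows of the 19S non-ATPases and in 23 of all 39 member windows (59.0%), against 35.7% of all windows. TGACNNNGC, the core of the antioxidant response element through which Nfe2l1 and Nfe2l2 act on proteasome genes, was in 6 of the 39 (15.4%), among them Psmb5 and Psmb6, against 12.4% of all windows. CCAAT was in 14 (35.9% against 37.4%) and 2 copies of GAAA spaced by 2 bases, a form of the interferon-stimulated response element, were in 4 (10.3% against 3.44%), none of them in an immunoproteasome gene. These motifs were searched on both strands with overlaps allowed, and a match describes the letters only.

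The members took 0.190% of the reads of the mK4 H3K4 library and 0.185% of the mK3 H3K4 library, against 0.102% and 0.107% of the H3K27 libraries and 0.149% and 0.138% of the inputs, each pair given with mK4 first. In RPKM, reads scaled by exon length and library total, a density that can be compared between genes, their summed density was 26.9 in mK4 and 26.2 in mK3 for H3K4, 14.4 and 15.2 for H3K27, and 21.1 and 19.6 for input. All genes together had 16.1 in each of the 6 libraries by construction. Library totals ranged between 311409 (input, mK3) and 714011 reads (H3K4, mK4), and a member had a median of 30 H3K4, 11 H3K27 and 12 input reads in mK4 and 21, 12 and 7 in mK3. At most 5 input reads were counted at 9 of the 43 members in mK4 (5683 of all 21937 genes) and at 17 in mK3 (6787 of all genes). Single ratios over input are therefore imprecise. A mean of at least 10 reads after scaling to equal library totals was reached by 33 of the 43. Among genes set as a check of the lines, H3K4 reads in mK4 and mK3 were 26 and 4 at Pax2, 13 and 28 at Six2, and 8 and 1 at Wnt4, which are genes of the early nephron. Eya1, Osr1, Wt1, Foxd1 and Lhx1 were set for the same check and are not given here, so these counts do not establish line identity. Read counts of this kind do not measure expression.

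**Figure D1:**
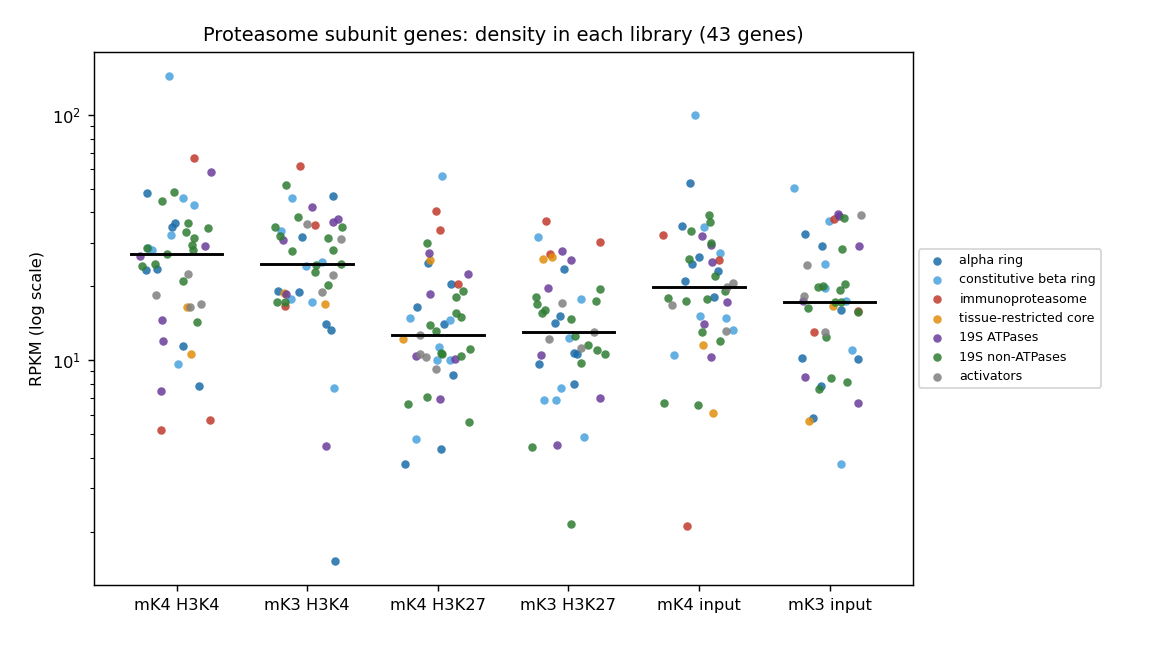
RPKM of the 43 proteasome subunit genes in each library on a log scale, coloured by subunit class, with the median over members as a black line. The medians are 27.1 and 24.6 in the H3K4 libraries of mK4 and mK3, 12.6 and 13 in the H3K27 libraries and 19.9 and 17.2 in the inputs.

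Proteasome genes as a group held more H3K4 and less H3K27 than their share of input in both lines. Their summed H3K4 share was 1.28-fold the input share in mK4 (1.16 to 1.41) and 1.34-fold in mK3 (1.2 to 1.5). For H3K27 it was 0.68-fold in mK4 (0.60 to 0.77) and 0.78-fold in mK3 (0.69 to 0.88). H3K4 set directly against H3K27, which leaves the input out, gave 1.87-fold in mK4 (1.68 to 2.08) and 1.73-fold in mK3 (1.56 to 1.91). In the same ratio the cytosolic ribosomal protein genes had 2.46-fold (2.20 to 2.76) and 2.47-fold (2.21 to 2.76), and 76 mitochondrial ribosomal protein genes 2.18-fold (1.99 to 2.39) and 2.16-fold (1.98 to 2.35). In both lines the interval of all proteasome genes together lay below that of the cytosolic ribosomal genes, without overlap. The 38 members outside the immunoproteasome and the tissue-restricted core had 2.13-fold in mK4 (1.90 to 2.40) and 1.99-fold in mK3 (1.78 to 2.22). These values were also below those of the cytosolic ribosomal genes. Here the intervals overlapped in both lines, in mK3 only narrowly. Overlap does not show that the lists are alike, and the ratio of these folds was not computed.

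Gene by gene, H3K4 lay above H3K27 at 36 of 43 members in each line, where 48.4% of all genes did so in mK4 and 44.5% in mK3. Psmb5, Psmb6 and Psmc1 had equal read counts in mK3 and were counted as not above. It did so in both lines at 32 members (34.1% of all genes), in 1 line at 8, and in neither at 3, which were Psmb9, Psma8 and Psmb11. The difference was at least 2-fold at 12 members in mK4 (9.32% of all genes) and at 9 in mK3 (8.36%), on log2 of scaled counts plus 5. The opposite, H3K27 at least 2-fold above H3K4, was found at 1 member in mK4, Psmb8 (10.4% of all genes), and at 0 in mK3 (11.8%). The counting interval lay above 1 in both lines at 10 members (9.24% of all genes), among 21 in mK4 (16.5%) and 16 in mK3 (16.6%). They were Psmb1, Psmb4, Psmb10, Psmc2, Psmd2, Psmd3, Psmd8, Psmd13, Psme3 and Psme4.

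**Figure D2:**
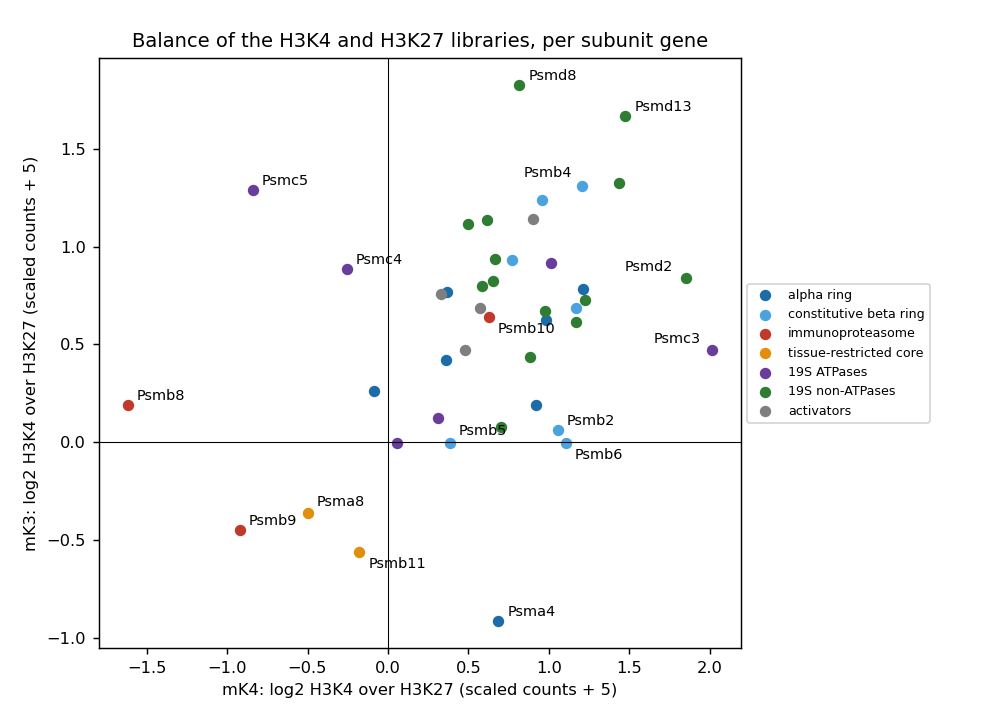
Log2 ratio of H3K4 to H3K27 (scaled counts plus 5) for each of the 43 genes in mK4 on the horizontal and mK3 on the vertical axis, coloured by class. The upper right holds 32 genes, and Psmb9, Psma8 and Psmb11 are at the lower left with ratios between -0.92 and -0.18 in mK4.

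Against input, a gene was called marked when its scaled ChIP count plus 5 was at least 2-fold its line's input on the same scale. H3K4 marked 5 members in mK4 (11.6% of members, against 3.69% of all genes) and 8 in mK3 (18.6% against 4.94%). Psmb2 and Psmd14 were marked in both lines (0.811% of all genes were). Psmb2, a structural beta subunit, had 26 H3K4 reads in mK4 and 17 in mK3, against 5 and 1 input reads, and its log2 ratio over input was 1.03 and 1.56. Psmd14 had 30 and 29 H3K4 reads against 4 and 6 input reads, with log2 ratios of 1.37 and 1.01. Both genes had fewer input reads than the median member, 12 in mK4 and 7 in mK3. Over all marked members the input ranged between 4 and 16 reads in mK4 and between 1 and 7 in mK3, and Psmc3 in mK4, with 16, was above that median.

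In mK4 the other marked members were Psmd13 and Psmb7, with 33 and 32 H3K4 reads over 4 and 5 input reads, and the ATPase gene Psmc3, with 69 over 16. In mK3 they were Psmd6 (40 over 7), Psmd8 (29 over 4), Psma2 (18 over 3), Psma6 (28 over 5), Psmb8 (26 over 5) and Psma8 (19 over 3). H3K27 marked 2 members in each line (4.65%, against 9.06% of all genes in mK4 and 10.3% in mK3). These were Psma8 in both lines (2.85% of all genes), Psmb8 in mK4 and Psmb2 in mK3. At Psmb2, mK4 had 6 H3K27 reads over 5 input reads, while the 16 in mK3 stood over 1 input read.

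The median log2 ratio over input was 0.23 in mK4 and 0.32 in mK3 for H3K4, and -0.56 and -0.32 for H3K27, where the medians over all genes were 0.0 in each case. H3K4 was above input at 24 members in mK4 (47.1% of all genes) and at 30 in mK3 (47.2%), and H3K27 at 12 (47%) and 14 (49.7%). The lowest mean H3K4 ratio over input was that of Psma3, with 8 and 12 H3K4 reads over 10 and 13 input reads in mK4 and mK3. Psma4 had 9 and 1 over 9 and 2. The lowest mean H3K27 ratios were those of Psmb1 (5 and 3 reads over 11 and 12), Psmb4 (26 and 7 over 37 and 15) and Psmd5 (11 and 14 over 29 and 11).

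**Figure D3:**
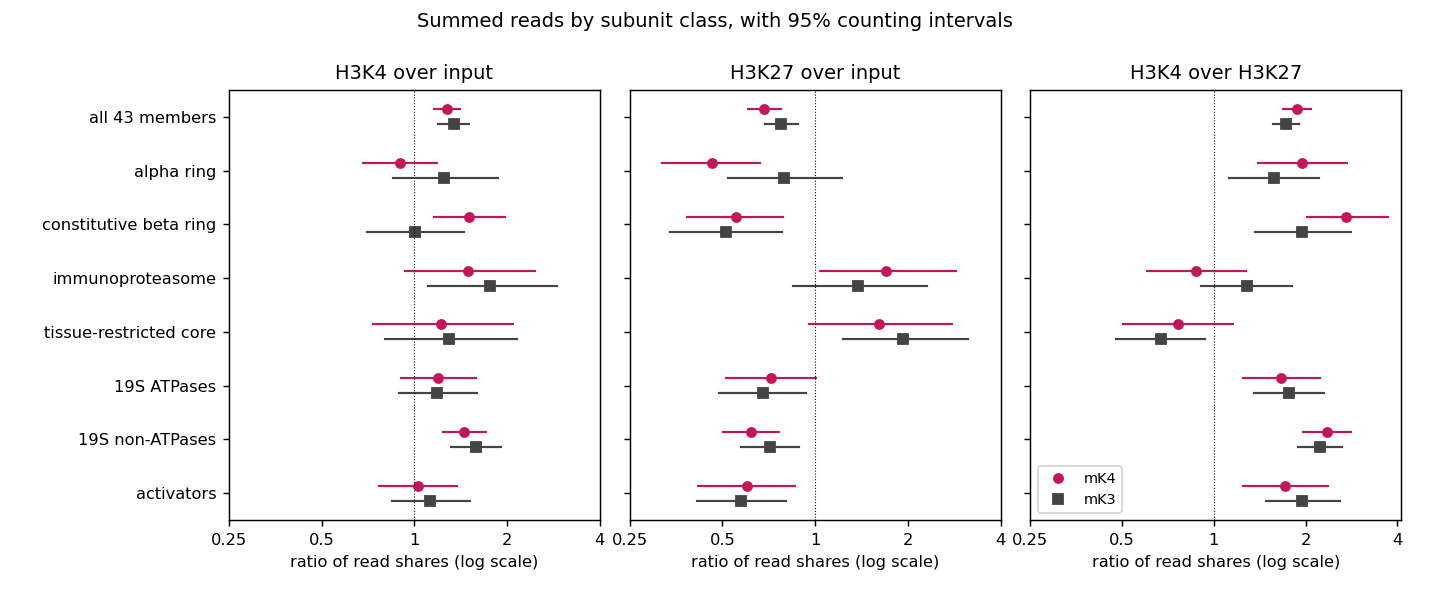
Ratio of summed read shares with 95% counting intervals for all 43 members and each class, for H3K4 over input, H3K27 over input and H3K4 over H3K27, with mK4 as circles above mK3 as squares on a log axis. H3K27 over input lies above 1 only for the immunoproteasome (1.70 and 1.38) and the tissue-restricted core (1.61 and 1.93), with intervals that include 1 for the immunoproteasome in mK3 and the tissue-restricted core in mK4.

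Among the subunits of the core, the alpha ring had a summed H3K4 over H3K27 of 1.94-fold in mK4 (1.40 to 2.73) and 1.57-fold in mK3 (1.12 to 2.21). The constitutive beta ring had 2.72-fold (2.02 to 3.72) and 1.95-fold (1.36 to 2.82). Its H3K4 was 1.5-fold input in mK4 (1.16 to 1.97) and 1.0-fold in mK3 (0.70 to 1.45). H3K27 over the beta ring was below input in both lines, at 0.55-fold in mK4 (0.38 to 0.79) and 0.51-fold in mK3 (0.34 to 0.78). Over the alpha ring it was 0.46-fold input in mK4 (0.32 to 0.66). In mK3 the alpha ring had 0.79-fold (0.52 to 1.22), which included 1, and 4 of its 7 genes were above input (49.7% of all genes). Psmb4, the closing subunit of the beta ring, had the highest density of all members in mK4, with 144 RPKM of H3K4, 56.5 of H3K27 and 100.1 of input. It had 45.7, 12.3 and 50.4 in mK3, so that its input was high too.

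The catalytic subunits of the constitutive core had few reads. Psmb5, the chymotrypsin-like subunit, had 6 and 4 H3K4 reads, 2 and 4 H3K27 reads and 5 and 3 input reads in mK4 and mK3, which tells the libraries apart in neither line. Psmb6, the caspase-like subunit, had 24 and 11 H3K4, 5 and 11 H3K27 and 14 and 8 input reads. Psmb7, the trypsin-like subunit, had 32 and 10 H3K4, 7 and 4 H3K27 and 5 and 6 input reads. H3K4 over H3K27 was 3.24-fold at Psmb6 (1.21 to 10.9) and 3.08-fold at Psmb7 (1.34 to 8.27) in mK4, with equal read counts of 11 and 11 at Psmb6 in mK3.

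Summed over the 3 immunoproteasome genes, H3K27 relative to input was higher than over the 40 other members in both lines. The size differed widely between genes. In mK4 the fold was 16.1 at Psmb8 (2.57 to 666), over 1 input read, and 0.80 at Psmb9 (0.26 to 2.46). The 40 other members had 0.64 in mK4 (0.56 to 0.72), which lies inside the interval of Psmb9. Psmb8 had 5 H3K4 reads in mK4 and 26 in mK3, beside 20 and 22 H3K27 reads and 1 and 5 input reads. Its H3K27 exceeded H3K4 in mK4, with an H3K4 over H3K27 ratio of 0.17 (0.05 to 0.46), but not in mK3, where the ratio was 1.18 (0.64 to 2.18). Psmb9 had 3 and 8 H3K4 reads, 8 and 13 H3K27 reads and 8 and 4 input reads, with ratios of 0.25 (0.04 to 1.05) and 0.61 (0.22 to 1.6). Psmb10 differed from both. It had 61 and 47 H3K4 reads, 25 and 28 H3K27 reads and 16 and 15 input reads, and H3K4 stood above H3K27 at 1.64-fold (1.02 to 2.73) and 1.67-fold (1.03 to 2.77).

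Summed over the 3 genes, H3K27 was 1.70-fold input in mK4 (1.04 to 2.86) and 1.38-fold in mK3 (0.85 to 2.31), against 0.47-fold (0.22 to 0.94) and 0.59-fold (0.29 to 1.2) for Psmb5, Psmb6 and Psmb7. The ratio of these folds was 3.59 in mK4 (1.5 to 8.92) and 2.33 in mK3 (0.97 to 5.66), so that the difference exceeded counting error in mK4 and not in mK3. Against the 40 other members the ratio of folds was 2.67 (1.6 to 4.56) and 1.86 (1.12 to 3.17). Without Psmb8, against the 3 constitutive genes, it was 2.34 in mK4 (0.94 to 5.99) and 1.92 in mK3 (0.75 to 4.92). Without Psmb10 it was 5.20 (1.78 to 16.5) and 3.42 (1.18 to 10.6). For H3K4 over input the immunoproteasome had 1.49-fold (0.93 to 2.47) and 1.77-fold (1.11 to 2.91), against 1.40-fold (0.86 to 2.34) and 0.77-fold (0.40 to 1.52) for the constitutive genes. The ratio of those folds included 1 in both lines, at 1.07 (0.52 to 2.17) and 2.28 (0.99 to 5.26). In mK4 these H3K4 values moved when genes with few reads over the 6 libraries were left out. Among genes with a mean of at least 10 scaled reads, which leaves Psmb8 and Psmb10 against Psmb6 alone, they were 2.10-fold (1.22 to 3.82) and 0.93-fold (0.46 to 1.94), and H3K27 at Psmb6 was 0.29-fold input (0.08 to 0.84).

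The tissue-restricted core subunits had a summed H3K4 over H3K27 of 0.76 in mK4 (0.50 to 1.16) and 0.67 in mK3 (0.48 to 0.94), below 1 beyond counting error in mK3 only. For the immunoproteasome the same ratio was 0.88 (0.60 to 1.28) and 1.28 (0.91 to 1.81), which included 1 in both lines. Psma8 had 20 and 19 H3K4 reads, 21 and 26 H3K27 reads and 4 and 3 input reads in mK4 and mK3, and both antibodies stood over its low input. Psmb11 had 32 and 43 H3K4, 25 and 66 H3K27 and 19 and 22 input reads, and H3K4 over H3K27 was 0.86 in mK4 (0.50 to 1.52) and 0.65 in mK3 (0.43 to 0.97), where it was the 1 member with the interval below 1 (18.8% of all genes). Together their H3K27 was 1.61-fold input (0.95 to 2.78) and 1.93-fold (1.23 to 3.14). This fold was 2.49 times that of the other 41 members in mK4 (1.45 to 4.37) and 2.74 times in mK3 (1.71 to 4.53), beyond counting error in both lines. It is a sum over 2 genes, of which H3K27 marked Psma8 only. In mK4, Psma8 had 21 H3K27 reads over 4 input reads, while Psmb11 had 25 over 19. Neither gene was set alone against the other 41 members.

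All 14 Psmd genes, the 19S non-ATPases with their 3 assembly chaperones, had more H3K4 than H3K27 in both lines. Summed, the ratio was 2.34-fold in mK4 (1.96 to 2.81) and 2.22-fold in mK3 (1.88 to 2.63), with H3K4 at 1.45-fold input (1.24 to 1.71) and 1.58-fold (1.32 to 1.91) and H3K27 at 0.62-fold (0.50 to 0.76) and 0.71-fold (0.57 to 0.88). Psmd13, a subunit of the lid, had 33 and 19 H3K4 reads beside 5 and 2 H3K27 reads, a ratio of 4.45 (1.73 to 14.6) and 9.46 (2.28 to 83.8). Psmd8, also of the lid, had 34 and 29 beside 11 and 4, a ratio of 2.08 (1.03 to 4.56) and 7.22 (2.54 to 28.3). Psmd2, the large scaffold subunit of the base, had 61 and 62 beside 8 and 32, at 5.14 (2.45 to 12.4) and 1.93 (1.24 to 3.06). Psmd3 had 56 and 49 beside 11 and 16, at 3.43 (1.78 to 7.26) and 3.05 (1.71 to 5.75).

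The ATPases, which thread the substrate into the core, had 1.66-fold H3K4 over H3K27 in mK4 (1.25 to 2.23) and 1.76-fold in mK3 (1.35 to 2.31), with members that differed between the lines. Psmc5 had 11 H3K4 and 17 H3K27 reads in mK4 (ratio 0.44, 0.18 to 0.99, one of 2 members with the interval below 1 in mK4, where 18% of all genes had it), but 28 and 8 in mK3 (3.49, 1.55 to 8.85), over 7 input reads in each. Psmc3 went the other way, with 69 and 8 reads in mK4 (5.81, 2.79 to 14) and 37 and 25 in mK3 (1.47, 0.86 to 2.56). Psmc1 had at most 8 reads in any library. The alpha and constitutive beta rings together and the regulatory particle did not differ beyond counting error in H3K4 over H3K27, where the ratio of their folds was 1.10 in mK4 (0.84 to 1.44) and 0.84 in mK3 (0.63 to 1.11).

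Of the activators, which cap the core without ATP, all 4 had more H3K4 than H3K27 in both lines. Psme1 and Psme2, the interferon-inducible PA28 subunits, had 13 and 11 H3K4 reads in mK4 and 21 and 12 in mK3, beside 6 and 4 H3K27 reads in mK4 and 10 and 7 in mK3. The intervals of H3K4 over H3K27 included 1 at both genes in both lines. Psme3, the nuclear PA28 subunit, had 42 and 49 H3K4 beside 13 and 19 H3K27 reads, and Psme4, the PA200 activator, had 76 and 73 beside 33 and 43. Over input the activators' H3K4 was 1.03-fold in mK4 (0.77 to 1.38) and 1.13-fold in mK3 (0.85 to 1.51), and their H3K27 was 0.60-fold (0.42 to 0.86) and 0.58-fold (0.41 to 0.80).

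Other genes of the pathway were taken from lists. Of 25 genes of proteasome assembly, ubiquitin supply and proteasome-gene regulation, H3K4 marked 1 in mK4 (4%, against 3.69% of all genes), which was Akirin2, which carries proteasomes into the nucleus. In mK3 it marked 3 (12%, against 4.94%), namely Psmg4, an assembly chaperone, Ubqln2, a ubiquitin shuttle, and Uchl5, a deubiquitinase. Their summed H3K4 over H3K27 was 1.69-fold (1.51 to 1.91) and 1.46-fold (1.31 to 1.64). The 14 antigen presentation genes, which the immunoproteasome serves, had 0.99-fold in mK4 (0.87 to 1.12) and 1.15-fold in mK3 (1.01 to 1.30). H3K27 marked 2 of the 14 in mK4 (14.3%, against 9.06% of all genes), the peptide transporter gene Tap1 and Ciita, the activator of MHC class II genes, and 0 in mK3 (10.3% of all genes), counts too small to set the list apart. Nlrc5, an activator of MHC class I and immunoproteasome genes, had 72 and 42 H3K4 reads beside 117 and 118 H3K27 reads, a ratio of 0.41 (0.30 to 0.56) and 0.35 (0.24 to 0.51). The whole list had 426 and 462 H3K27 reads, so Nlrc5 lowers the summed ratio of the 14 genes. That ratio was not computed without it.

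Between the lines the intervals of the summed ratios of the members included 1. The summed H3K4 share in mK4 was 1.03-fold that in mK3 (0.95 to 1.11), the H3K27 share 0.95-fold (0.84 to 1.07) and the input share 1.08-fold (0.95 to 1.22). For H3K27 the interval excluded 1 when divided by the input ratio, at 0.88 (0.78 to 0.99), with the input ratio taken as fixed, and on the chromosomes other than 3, 7, 14 and X, at 0.85 (0.74 to 0.99). A call of a difference needed a mark in either line together with a 2-fold ratio of mK4 to mK3. For H3K4 this held for Psmb7, higher in mK4 (0.424% of all genes were), and Psmb8, lower in mK4 (0.392%). Psmb7 had 32 reads in mK4 and 10 in mK3 (2.67-fold, 1.28 to 6.08), beside 5 and 6 input reads. Psmb8 had 5 and 26 reads (6.24-fold lower, 2.36 to 20.8), but its input moved the same way, with 1 and 5 reads. With the input ratio subtracted its log2 ratio was -0.61, and the call was lost. For H3K27 no member was called in either direction (0.889% of all genes were higher and 0.934% lower). In the inputs, where no mark is read, 5 members were at least 2-fold higher in mK4 (7.26% of all genes), namely Psma2, Psma4, Psma5, Psmc4 and Psmd4, and 1, Psmb8, was at least 2-fold lower (6.2%).

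The mK4 value was the higher one at 20 members for H3K4 (45.8% of all genes), at 18 for H3K27 (42.9%) and at 20 for input (45.9%). The counting interval of the ratio excluded 1 for H3K4 at 7 members with more in mK4 (16.3%, against 9.29% of all genes) and 2 with less (4.65%, against 10.7%). For H3K27 it did so at 4 with more (9.3%, against 7.56%) and 3 with less (6.98%, against 8.25%), and for input at 5 with more (11.6%, against 6.97%) and 1, Psmc2, with less (2.33%, against 7.59%).

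Several members with large ratios lay on chromosomes whose input share also differed between the lines. All 3 members on chromosome 3, where the input of all genes was 1.84-fold in mK4 (1.80 to 1.88), had more H3K4 in mK4. Psmb4 had 98 H3K4 reads in mK4 and 26 in mK3 (3.14-fold, 2.02 to 5.05), with 26 and 7 for H3K27 and 37 and 15 for input. Psma5 had 42 and 14 H3K4 reads (2.5-fold, 1.34 to 4.96), with 25 and 3 input reads, and Psmd4, the ubiquitin receptor gene, had 31 and 13, with 19 and 3. On the X chromosome Psmd10, which encodes the assembly chaperone gankyrin, had 48 and 20 H3K4, 20 and 9 H3K27 and 16 and 7 input reads. The input of all genes was also higher in mK4 on chromosome 7 (1.54-fold) and X (1.49-fold), but lower on chromosome 14 (0.64-fold). The 6 members on chromosome 14 had 0.87 for input (0.61 to 1.23), 0.71 for H3K4 (0.55 to 0.90) and 0.64 for H3K27 (0.46 to 0.86). Pooled over chromosomes 3, 7, 14 and X, which mixes these directions, the 14 members had an input ratio of 1.59 (1.26 to 2.02). Their H3K4 ratio was 1.26 (1.09 to 1.47) and their H3K27 ratio 1.18 (0.96 to 1.47). The 29 members elsewhere had 0.90 for input (0.77 to 1.05), 0.94 for H3K4 (0.85 to 1.03) and 0.85 for H3K27 (0.74 to 0.99).

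The constitutive beta ring had a summed H3K4 ratio of 1.97 between mK4 and mK3 (1.54 to 2.53), with all 7 genes above 1, beside an input ratio of 1.31 (0.91 to 1.92). Without Psmb4 these were 1.52 (1.12 to 2.07) for H3K4 and 1.02 (0.63 to 1.65) for input. Of the 124 and 68 H3K4 reads then left in mK4 and mK3, Psmb7, called higher in mK4, held 32 and 10. The ratio without Psmb7 was not computed. The alpha ring had 1.29 (0.99 to 1.69) for H3K4 and 1.80 (1.22 to 2.69) for input, the regulatory particle 0.98 (0.88 to 1.10) and 1.04 (0.87 to 1.24), and the activators 0.76 (0.60 to 0.97) and 0.84 (0.60 to 1.18). The immunoproteasome had an H3K4 ratio of 0.71 (0.51 to 0.99) beside an H3K27 ratio of 1.04 (0.71 to 1.52). Other members at the ends of the range were Psmc5, with less H3K4 in mK4 (0.33-fold, 0.15 to 0.68) and more H3K27 (2.62-fold, 1.07 to 7.01), Psmd2, with less H3K27 (0.31-fold, 0.12 to 0.68), and Psmc3, with less H3K27 (0.39-fold, 0.15 to 0.90) and more H3K4 (1.55-fold, 1.03 to 2.38). Psmc5, Psmd2 and Psmc3 had input ratios whose intervals included 1.

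**Figure D4:**
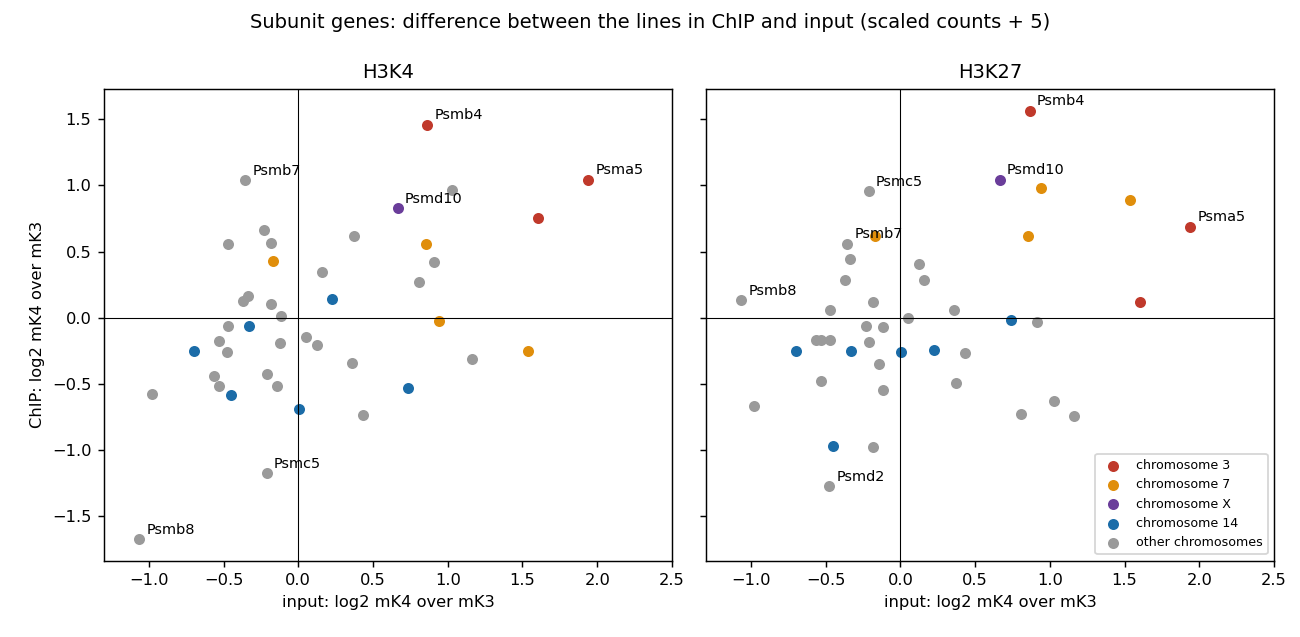
Log2 ratio of mK4 to mK3 (scaled counts plus 5) in the H3K4 libraries on the left and the H3K27 libraries on the right, against the same ratio in the inputs, for the 43 genes coloured by chromosome. The 3 genes of chromosome 3 are above 0 on both axes for both antibodies, while Psmb7 and Psmc5 have input ratios of -0.36 and -0.21.

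Psmb9 and Psmb8 lie in the MHC region of chromosome 17 in the gene order Psmb9, Tap1, Psmb8, Tap2, which are adjacent protein-coding genes in the RefSeq table. Tap1 and Tap2 form the transporter that carries peptides to MHC class I molecules. Tap1 had 37 H3K4 reads in mK4 and 68 in mK3, 38 and 48 H3K27 reads and 11 and 28 input reads, and Tap2 had 29 and 38, 28 and 22, and 15 and 12. At each of these 4 genes, grouped after their values were seen, H3K4 over H3K27 was lower in mK4. Their ratios were 0.25 in mK4 and 0.61 in mK3 at Psmb9, 0.66 and 1.41 at Tap1, 0.17 and 1.18 at Psmb8, and 0.70 and 1.72 at Tap2. Because of that choice the shared direction is a description only and was not tested. The share of all genes with a lower ratio in mK4 was not computed. Summed over the 4 genes, 74 H3K4 and 94 H3K27 reads in mK4 stood against 140 and 105 in mK3, with 35 and 49 input reads. Psmb10, on chromosome 8, had nearly the same ratio in both lines.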

How the data were processed

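The authors deposited whole read counts per gene, exon lengths and RPKM values for 6 ChIP-seq libraries. Per the submitters' processing notes the genome build was mm9. Aligner, counter and duplicate handling: not given in the sources used here. The authors' RPKM equals the deposited count scaled by exon length and by the file's own count total, to within a relative 2.69e-09. The antibody's catalogue number is as given in the labels.

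Where a symbol had several rows (137 symbols), the row kept was the one with most reads on average in the ChIP libraries. Each of the 43 members had 1 row. Counts were scaled to equal totals of 513622, and log2 ratios used a pseudocount of 5, which understates differences of genes with few reads. Summed folds divide 2 read shares, use no pseudocount and have exact Clopper-Pearson intervals, and ratios of folds have exact conditional odds ratio intervals. Duplicate reads would make all of them too narrow. Named genes are Psmb2, the immunoproteasome genes and their counterparts, tissue-restricted subunits, activators, every called member and the 3 highest and lowest per mark, over input and between the lines. Further members are named where a class is described. The members, lists and rules were chosen with earlier results of these data known. The call of a mark and the interval of a summed fold were tested on simulated data. Python 3.11.15, SciPy 1.17.1 and pandas 2.3.3 were used. Gene order and promoters came from RefSeq tables of GRCm38.p6.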

Additional observations from a re-analysis of the deposited data

Results flagged for a closer look

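Values over input had opposite signs in the 2 lines, with the higher one at least 2-fold, at 3 members for H3K4 (6.98%, against 2.59% of all genes) and at 1 for H3K27 (2.33%, against 3.19%). With 1 library per line the difference was not tested. On the log2 scale, H3K4 over input was 1.27 in mK4 and -0.13 in mK3 at Psmb7. It was -0.43 in mK4 and 1.05 in mK3 at Psma2, and -0.015 in mK4 and 1.26 in mK3 at Psmd6. H3K27 over input was -0.030 in mK4 and 1.5 in mK3 at Psmb2. The mK4 values of Psmd6 and Psmb2 were close to 0, that is, to input. Input reads in mK4 and mK3 were 5 and 6 at Psmb7, 13 and 3 at Psma2, 17 and 7 at Psmd6, and 5 and 1 at Psmb2. H3K4 reads were 32 and 10 at Psmb7, 16 and 18 at Psma2, and 31 and 40 at Psmd6, and H3K27 reads at Psmb2 were 6 and 16.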

How the results depend on the processing

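Of 182 values recomputed under the alternatives, 148 kept their value within counting error or, for counts, within 1.5 times, and 34 moved further. Of 110 folds and medians, 5 changed side of no difference, none of which had an interval that excluded it. These were the summed ratio between mK4 and mK3 without chromosomes 3, 7, 14 and X (0.94 for H3K4 and 0.90 for input), that for H3K4 with own input subtracted (0.95), that for H3K27 with median-of-ratios scaling (1.01), and H3K4 over input at the constitutive catalytic genes in mK4 among genes of at least 10 scaled reads (0.93). Apart from side, the interval came to exclude no difference at 7 of the 110 and to include it at 6. The latter held for H3K27 over input at the constitutive catalytic genes in mK4. It was 0.51 (0.22 to 1.10) without chromosomes 3, 7, 14 and X and 0.62 (0.34 to 1.04) with exon length as background. The rest of the 6 were medians over members and the summed H3K27 fold in mK3 given below. Counts of called members moved most. With a pseudocount of 1, H3K4 marked 9 members in mK4 and 14 in mK3, 2 were higher and 2 lower in mK4, H3K27 was lower at 1, and its median over input in mK4 was -0.68. With a pseudocount of 10, H3K4 marked 2 in mK4 and 3 in mK3, and 0 were higher and 0 lower. At 1.5-fold, H3K4 marked 13 and 17, with 4 higher and 3 lower, and H3K27 marked 5 in mK3, with 1 higher and 2 lower. Members with a mean of at least 10 scaled reads gave 3 marked by H3K4 in mK4 and 0 higher. With exon length as background the summed folds were 1.67 in mK4 and 1.63 in mK3 for H3K4 and 0.89 and 0.94 for H3K27, the last with an interval (0.87 to 1.02) that included 1. The H3K4 median was then 0.56 in mK4, 3 members were higher and 0 lower for H3K4, 1 was higher for H3K27, and H3K27 marked 0 in mK3. With own input subtracted, H3K4 was lower at 2 members, Psma2 and Psmd6, and no longer at Psmb8, while H3K27 was higher at 1, Psmb8, and lower at 1, Psmb2. With neighbour input subtracted (10 genes on each side), H3K4 was higher at 0, since Psmb7 lost its call. The cause was not tested. Summing the rows of a symbol and median-of-ratios scaling moved no value past these limits. The alternatives for H3K4 over H3K27 were added after seeing the data and moved none. No paired analysis was possible because each group has 1 library, and for the same reason no library could be left out. A few reads per gene limit every single-gene ratio.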
